A study of Mus musculus with 24 samples.

Results

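Apol6 and 33 further interferon-stimulated genes were followed in brown adipose tissue (BAT) of mice in which genotype and housing temperature were both varied. The genes were taken from a list of 34 symbols, and all 34 were found among the 12615 genes of the deposited count table. All 34 also passed the filter on low counts, and no member had a count of 0 in any library. RNA from BAT of 24 mice had been sequenced as 3′ tags, 1 for each transcript, and levels are given as CPM, the tags of a gene scaled to the normalized size of its library.

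All mice carried floxed alleles of TBLR1 and TBL1 (TBLR1 fl/fl;TBL1 fl/fl), the genes of a pair of corepressor subunits, and all were treated with tamoxifen. Mice labelled BATdKO were also Ucp1CreERT2 positive, so that tamoxifen should act in cells that use the Ucp1 promoter, the thermogenic adipocytes, and other cells of the tissue should keep both genes. Mice labelled Cre- were Ucp1CreERT2 negative. The mice were raised at 22°C, and the temperature protocol began 3 weeks after the last tamoxifen injection. There were 4 groups of 6 mice: either genotype was kept for 4 days at 30°C, or for 6 days at 8°C after 1 day each at 18, 16 and 12°C. The labels give the mice as female and their age at tamoxifen as 5 years, whereas the study's text gives the age in weeks, a shorter time at 8°C and, in a legend, males.

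Interferons are secreted alarm signals. Type I interferon acts through a complex that holds STAT2 and IRF9 and binds an interferon-stimulated response element in promoters, and interferon gamma acts mainly through another short element, the gamma-activated site. The induced genes encode sensors of viral RNA, proteins that block viral replication, GTPases that attack membranes around pathogens, and parts of the signalling chain itself. Many are also expressed at a low level in healthy tissue.

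Promoter sequences show which members carry the first element close to their start. RefSeq promoters of GRCm38.p6 were available for 26 of the 34 members, and the 250 bases before each start were searched on both strands for TTTC followed after any 2 bases by a further TTTC, the core of the interferon-stimulated response element. A gene was counted if any of its promoters held the motif. This was so for 12 of the 26 members (46.2%), against 3.46% of all 27025 genes with a promoter. TTCNNNGAA, the core of the gamma-activated site, which reads the same on both strands and can overlap the first, was present in 6 of the 26 (23.1%), against 8.13% of all. The first windows are from Gbp7 and Igtp, which fell in the cold in Cre- mice, and the others are from Isg15, Ifit1 and Rsad2, which passed the adjusted threshold in no comparison. Capitals mark the first motif on either strand (on the other strand it reads GAAA, any 2 bases, GAAA), and where matches overlap they run together.
Gbp7, chr3:142530259-142530316, plus strand: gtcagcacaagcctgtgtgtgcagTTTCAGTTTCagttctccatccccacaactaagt
Igtp, chr11:58199498-58199555, plus strand: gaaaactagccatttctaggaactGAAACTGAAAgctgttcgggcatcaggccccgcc
Isg15, chr4:156200851-156200920, minus strand: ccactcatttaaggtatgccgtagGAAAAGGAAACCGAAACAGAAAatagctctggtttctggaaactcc
Ifit1, chr19:34640761-34640837, plus strand: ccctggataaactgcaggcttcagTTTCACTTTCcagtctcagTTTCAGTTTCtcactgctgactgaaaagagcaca
Rsad2, chr12:26456539-26456596, minus strand: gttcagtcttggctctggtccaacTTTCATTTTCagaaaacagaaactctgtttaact
The motif was thus found in members that passed the adjusted threshold and in members that did not. Of those that passed, Gbp2, Gbp7 and Igtp held it, and Xaf1 held neither motif. For Apol6 and Ifi27, which also passed, no promoter was available, so they were not searched.

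Library totals ran from 699703 to 11527643 counts, with Cre- m4 at 30°C the lowest and BATdKO m1 at 8°C the next, at 2738613. The label check comes first, since it bears on every genotype result. Tbl1xr1, which encodes TBLR1, was not lower but higher in mice labelled BATdKO at 8°C, at 33.7 to 44.3 CPM against 18.2 to 24.6 in those labelled Cre- (log2 fold change 0.92 ± 0.17 SE, adjusted p = 0.00348). Tbl1x, which encodes TBL1, was higher there too (0.39 ± 0.10, adjusted p = 0.0633). A 3′ tag that lies outside a deleted exon does not report the deletion, and which exons are floxed is not given in the sources used here. Why both genes were higher was not tested, and the sign of each genotype difference below rests on the labels. At 30°C the summed level of both genes separated the labels in 5 mice of each, but m6 labelled Cre- was at 92.1 CPM, within the 83.2 to 99.5 of BATdKO m1 to m5, and m6 labelled BATdKO was at 56.6 CPM, within the 55.9 to 67.0 of Cre- m1 to m5. The comparisons that use the 30°C mice were therefore also fitted without both m6 libraries, and those values are given beside the results or together after the single genes. Genotypes below are those of the labels. Library numbers of the 30°C and the 8°C mice form separate blocks, so temperature and anything else that differed between these blocks cannot be told apart.

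In the cold, Cre- mice had lower levels of several members. In these mice 5 members fell and 1 rose at an adjusted p under 0.1, the study's threshold (edgeR quasi-likelihood test, Benjamini-Hochberg adjustment over 12485 genes). Apol6, Gbp2, Gbp7, Igtp and Xaf1 fell, and Ifi27 rose. Of all tested genes 3.59% fell and 5.57% rose in this comparison, and 9.15% passed in either direction. The log2 fold change was below 0 for 29 of the 34 members (54% of all genes), and the median of the members was -0.22 against -0.02 for all genes. At an unadjusted p under 0.05, 12 members were lower, where 8.95% of all genes were. The members were chosen with earlier results in view, so these shares describe the list and do not test it. In whole tissue, fewer cells of a type and less RNA per cell cannot be told apart.

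In BATdKO mice the same step from 30°C to 8°C moved fewer members past the threshold. Only Ifi27 passed, as a rise, where 3.76% of all genes rose and 7.07% passed in either direction. The members' median log2 fold change was -0.02, and 19 of 34 were below 0, against 50.5% of all genes. At an unadjusted p under 0.05, 2 members were higher and 6 lower, against 8.52% and 8.66% of all genes. Whether the cold response differed between genotypes was tested by the interaction. No member passed it in edgeR or DESeq2, and 0.0961% of all genes did in edgeR. At an unadjusted p under 0.05 there were 3 members, Igtp, Iigp1 and Oas1a, all with a value above 0, where 3.44% of all genes were. The interaction was above 0 for 27 of the 34 (51% of all genes).

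**Figure D1:**
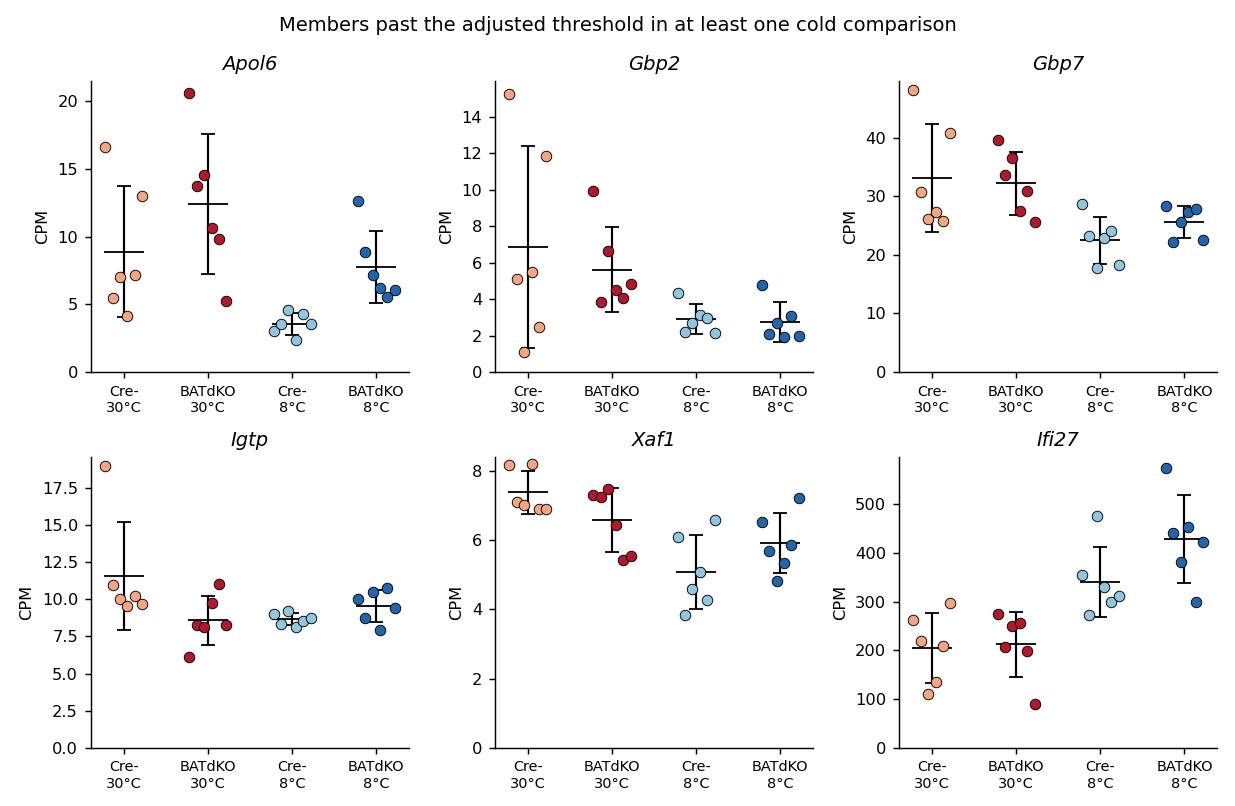
CPM of Apol6, Gbp2, Gbp7, Igtp, Xaf1 and Ifi27 in each of 24 mice, by labelled genotype and temperature. Points are mice m1 to m6 from left to right within a group, with the mean (long bar) and SD (error bar, n = 6). Each axis starts at 0. Cre- mice at 8°C lie lowest for Apol6 (2.38 to 4.60 CPM), and Ifi27 is the gene of the set that is higher at 8°C.

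Between the labelled genotypes, for which the level of Tbl1xr1 does not show the deletion, no member passed the adjusted threshold at either temperature. At 8°C, where 1.82% of all genes passed, the members' median log2 fold change of BATdKO against Cre- was 0.12, and 24 of 34 were above 0 (50% of all genes). At an unadjusted p under 0.05, 2 members were higher, Apol6 and Parp9, where 3.76% of all genes were. DESeq2 called 1 member here, Apol6, as higher, and 261 of all genes, 108 of them higher. At 30°C, where 0% of the 12485 genes passed in edgeR (1303 at an unadjusted p under 0.05) and 90 genes but no member in DESeq2, 1 member was higher and 5 were lower at an unadjusted p under 0.05, against 5.29% and 5.14% of all genes. Without both m6 libraries 500 genes passed at 30°C, and among the members Igtp did, as lower in BATdKO.

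**Figure D2:**
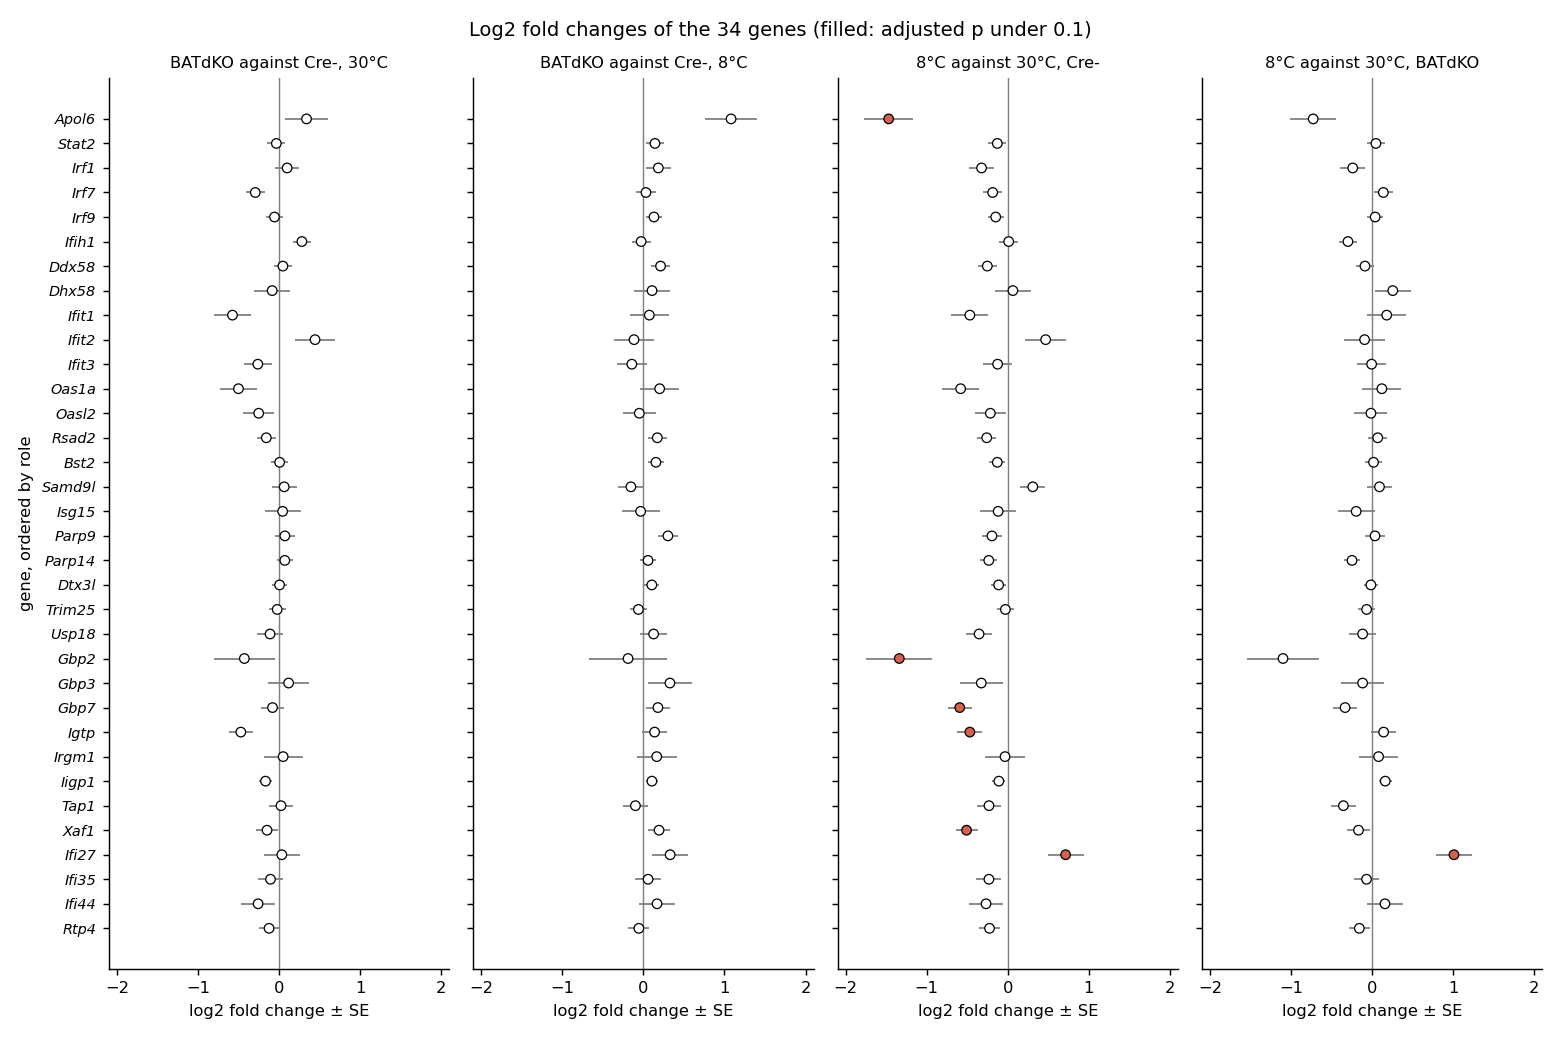
Log2 fold changes of the 34 genes in 4 comparisons, ordered by role, with bars of 1 SE (edgeR, 6 mice in each group). Filled points have an adjusted p under 0.1. Filled points are found in the panels for cold, 6 for Cre- and 1 for BATdKO, and none in the panels for genotype.

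Apol6 belongs to the apolipoprotein L family, intracellular relatives of a secreted lipid-binding protein. It lies on chromosome 15 of GRCm38 (77044729 to 77057106, plus strand), and its exons overlap those of the myoglobin gene on the other strand. Since the sources used here do not say whether tags were counted by strand, tags of that gene could be included. At 8°C Apol6 was at 3.05, 3.51, 4.60, 2.38, 4.28 and 3.54 CPM in Cre- m1 to m6, and at 12.6, 8.85, 7.13, 6.17, 5.55 and 6.06 CPM in BATdKO m1 to m6. The groups did not overlap, which held, as higher in BATdKO, for 1.07% of all genes. The difference was 2.12-fold, a log2 fold change of 1.08 ± 0.32 SE, with an unadjusted p of 0.0022 and an adjusted p of 0.112. An exact two-sided permutation test over 924 assignments of the mice gave 0.00216, the smallest value it can give. Such tests were computed 136 times, and Igtp and Xaf1 with cold in Cre- mice and Ifi27 with cold in BATdKO mice gave the same value.

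Whether Apol6 at 8°C passes the adjusted threshold depends on the fit. Its adjusted p was 0.022 with DESeq2, 0.00284 with the 8°C groups alone and 0.0468 without both m6 libraries at 30°C, with log2 fold changes of 1.07 to 1.10. Leaving out single mice gave adjusted p-values of 0.0569 to 0.246, and it passed in 5 of 24 such fits, without m1, m2 or m6 of the Cre- mice or m1 or m6 of the BATdKO mice at 30°C. These 5 mice were at 30°C and so not among the mice compared.

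At 30°C Apol6 was at 16.6, 5.43, 7.03, 4.10, 7.18 and 13.0 CPM in Cre- mice and at 20.6, 13.7, 14.5, 10.6, 9.82 and 5.26 CPM in BATdKO mice. Here the groups overlapped through m1 and m6 of the Cre- mice and m6 of the BATdKO mice. The log2 fold change was 0.34 ± 0.27 (adjusted p = 0.721), and without both m6 libraries 0.60 ± 0.26 (adjusted p = 0.282). From 30°C to 8°C Apol6 fell by 1.47 ± 0.31 on the log2 scale in Cre- mice (adjusted p = 0.0027), with means of 8.89 ± 4.85 and 3.56 ± 0.81 CPM (SD, n = 6). In BATdKO mice the same step was -0.73 ± 0.28 (adjusted p = 0.158), with means of 12.4 ± 5.18 and 7.73 ± 2.67 CPM, and without both m6 libraries it was -0.89 ± 0.25 and passed (adjusted p = 0.0428), as it did with BATdKO m6 alone left out (adjusted p = 0.0507). The interaction was 0.74 ± 0.42 (adjusted p = 0.665), so the 2 cold responses were not shown to differ.

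At 30°C the level of Apol6 was read beside brown adipocyte markers in each mouse. The summed level of 13 brown adipocyte markers was 3047, 2057, 1074, 1750, 1666 and 5353 CPM in Cre- m1 to m6, and 5362, 3646, 4461, 4971, 2929 and 1643 CPM in BATdKO m1 to m6. The Cre- mice high in Apol6, m1 and m6, were also the highest of their group in this sum, and BATdKO m6 was the lowest of its group in both. Both m6 libraries are those that stood out in the label check. The other mice did not all follow. Cre- m2 was above m3 and m5 in the sum but below both in Apol6, and BATdKO m4 was above m2 and m3 in the sum but below both in Apol6. At 8°C the sum was 3372 to 5980 CPM in Cre- and 4266 to 8418 CPM in BATdKO mice. The sum was thus higher at 8°C, where Apol6 was lower. Of the 13 markers 6 rose and 1 fell in the cold in Cre- mice, and 7 rose and 1 fell in BATdKO mice. Ucp1 and Dio2 were among those that rose, and the adipokine Adipoq fell in both (log2 fold change -0.58 ± 0.18, adjusted p = 0.0583, and -0.93 ± 0.18, adjusted p = 0.00233). The part of these markers in the result was not tested. The sum of 15 macrophage markers was 253 to 366 CPM over all mice. Its group medians at 30°C and 8°C were 311 and 267 CPM in Cre- mice, and 342 and 296 CPM in BATdKO mice.

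**Figure D3:**
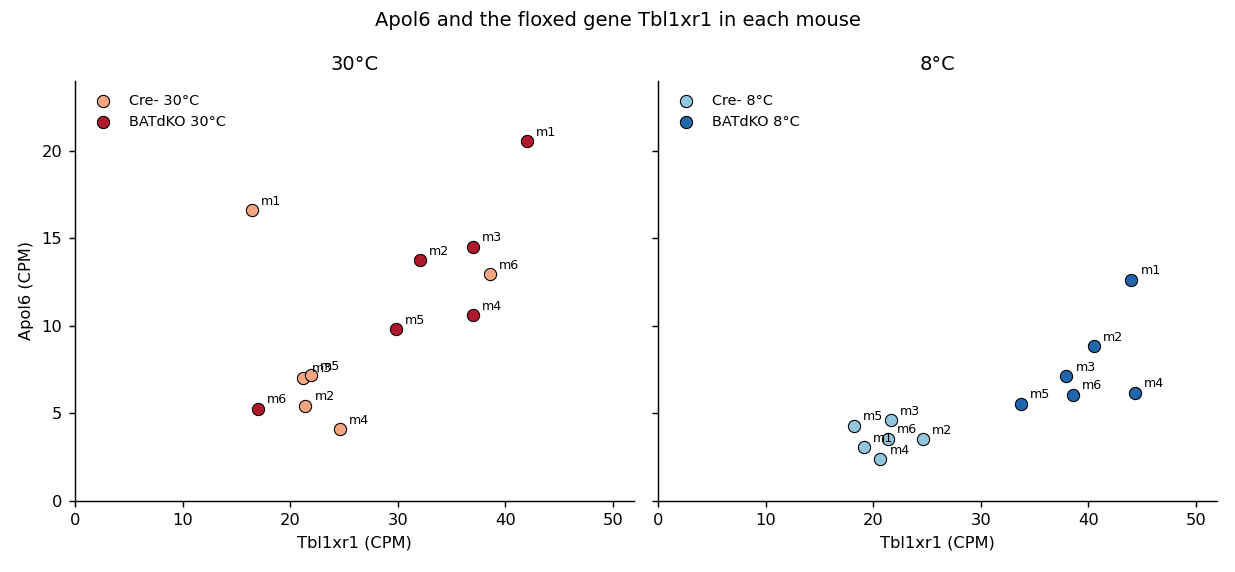
Apol6 against Tbl1xr1, both in CPM, in each mouse at 30°C (left) and 8°C (right), labelled m1 to m6. At 8°C the labelled genotypes separate on both axes. At 30°C Cre- m6 (38.6 CPM of Tbl1xr1) lies among the BATdKO mice and BATdKO m6 (17.0 CPM) among the Cre- mice.

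The genes of the signalling chain passed in no comparison. They were Stat2 and Irf9, parts of the complex that type I interferon activates, Irf7, which amplifies interferon production, and Irf1, a transcription factor that interferon gamma induces. Stat2 ran from 11.3 to 19.9 CPM over all mice and Irf9 from 21.8 to 34.2 CPM, with log2 fold changes between -0.15 and 0.14 in the 4 comparisons of groups. Irf7 was at 10.6 to 19.1 CPM (median 11.8) in Cre- and at 8.25 to 11.5 CPM (median 9.79) in BATdKO mice at 30°C, a log2 fold change of -0.29 ± 0.12 (adjusted p = 0.367). Its groups overlapped, and the highest Cre- value came from the shallow library m4. Irf1 had medians of 21.7 and 16.2 CPM in Cre- mice at 30°C and 8°C, with overlapping groups. In BATdKO mice Irf1 passed, as lower in the cold, only in the fit without both m6 libraries.

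Sensors of viral RNA also did not pass in the fit of all mice. Ifih1 encodes MDA5 and Ddx58 encodes RIG-I, which detect viral RNA, and Dhx58 encodes LGP2, which modulates both. Ifih1 was at 8.20 to 19.0 CPM (median 15.0) in Cre- and at 15.4 to 21.9 CPM (median 18.7) in BATdKO mice at 30°C, a log2 fold change of 0.28 ± 0.12 (adjusted p = 0.371). In the cold it was at 12.5 to 17.6 CPM in BATdKO mice (log2 fold change -0.30 ± 0.12, adjusted p = 0.158), a difference that passed without Cre- m1, m3 and m4 at 30°C (adjusted p = 0.087). Ifih1 was thus the only member above 0 at an unadjusted p under 0.05 between genotypes at 30°C. Ddx58 ran from 13.3 to 23.0 CPM over all mice, and Dhx58 was at 5.47 CPM at most.

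The antiviral effectors were low or even across the mice. IFIT proteins bind foreign RNA, OAS enzymes start RNA decay, viperin (Rsad2) makes a chain-terminating nucleotide, tetherin (Bst2) holds budding virus at the membrane, and Samd9l restricts viral translation. Ifit1 was at 2.21 to 4.80 CPM (median 3.47) in Cre- and at 2.12 to 2.71 CPM (median 2.41) in BATdKO mice at 30°C (log2 fold change -0.57 ± 0.23, adjusted p = 0.365). Oas1a had medians of 3.00 and 2.22 CPM in the same groups (-0.50 ± 0.23, adjusted p = 0.427), and its interaction was 0.70 ± 0.33 (adjusted p = 0.603). For both genes the BATdKO values at 30°C lay in the lower part of the Cre- range or below it. Oas1a passed, as lower in the cold in Cre- mice, without both m6 libraries and with m2 or m6 of the Cre- mice at 30°C alone left out. The others ran over all mice from 0.502 to 2.18 CPM for Ifit2, 2.73 to 7.21 for Ifit3, 1.36 to 5.47 for Oasl2, 11.3 to 22.7 for Rsad2, 10.9 to 19.3 for Bst2 and 4.72 to 8.71 for Samd9l.

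Isg15 encodes an interferon-induced, ubiquitin-like protein that becomes attached to other proteins. It had group medians of 3.95 and 4.92 CPM at 30°C and 4.17 and 4.04 CPM at 8°C, in Cre- and BATdKO mice in turn. The values of all 4 groups overlapped. Usp18, which removes ISG15 and damps the receptor, ran from 2.85 to 7.07 CPM, and Trim25, a ubiquitin ligase that activates RIG-I, from 23.5 to 45.1 CPM. Parp9 and Dtx3l form a complex that attaches ubiquitin to histones. Their exons overlap on opposite strands at the start of both genes, away from the ends that 3′ tags read. At 8°C Parp9 was at 19.8 to 27.0 CPM (median 22.6) in Cre- and at 21.7 to 33.5 CPM (median 29.9) in BATdKO mice (log2 fold change 0.30 ± 0.12, adjusted p = 0.351). Dtx3l ran from 46.6 to 67.6 CPM over all mice. Parp14, an ADP-ribosyl transferase, was at 25.8 to 32.3 CPM in BATdKO mice at 30°C and at 19.5 to 30.7 CPM at 8°C (log2 fold change -0.25 ± 0.10, adjusted p = 0.192), and passed without m5 at 8°C (adjusted p = 0.0758).

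The GTPases held 3 of the 5 members that fell in Cre- mice. Guanylate-binding proteins (Gbp2, Gbp3, Gbp7) and immunity-related GTPases (Igtp, Irgm1, Iigp1) take part in defence against pathogens held in vacuoles, and respond most to interferon gamma. Gbp7 was at 48.2, 30.7, 26.1, 27.3, 25.8 and 40.9 CPM in Cre- mice at 30°C and at 28.8, 23.2, 17.8, 22.8, 24.1 and 18.3 CPM at 8°C. The groups met only where m1 at 8°C exceeded the 3 lowest mice at 30°C. Gbp7 fell by 0.59 ± 0.15 on the log2 scale (adjusted p = 0.0129), and the call held in each fit that left out 1 mouse. In BATdKO mice the step was -0.33 ± 0.15 (adjusted p = 0.229), and it passed with only the BATdKO groups fitted (adjusted p = 0.0953).

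Gbp2 rested on few mice. It was at 15.3, 5.12, 1.08, 5.47, 2.48 and 11.8 CPM in Cre- mice at 30°C and at 2.15 to 4.34 CPM (median 2.82) at 8°C. Cre- m1 and m6, which were also high in Apol6, stood above the other 4 mice of the 30°C group, while m3 lay below every mouse at 8°C. Gbp2 fell by 1.34 ± 0.40 on the log2 scale (adjusted p = 0.0466), whereas the exact permutation test on mean log2 CPM gave p = 0.195. The call was lost without m1 (log2 fold change -0.87, adjusted p = 0.227) or m6 at 30°C or m6 at 8°C. In BATdKO mice the values were 3.83 to 9.94 CPM at 30°C and 1.95 to 4.79 CPM at 8°C (-1.10 ± 0.44, adjusted p = 0.178; exact permutation p = 0.00866), and Gbp2 passed there with only the BATdKO groups fitted (adjusted p = 0.0256), without Cre- m1, m3 and m4 at 30°C (adjusted p = 0.0513) and without Cre- m3 alone (adjusted p = 0.0743).

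Igtp was at 19.0, 11.0, 10.0, 9.57, 10.2 and 9.68 CPM in Cre- mice at 30°C and at 8.11 to 9.21 CPM (median 8.64) at 8°C. The groups did not overlap, and m1 stood far above the other mice. Groups without overlap, lower in the cold in Cre- mice, were found for 2 members, Igtp and Xaf1, and for 0.745% of all genes. Igtp fell by 0.47 ± 0.15 on the log2 scale (adjusted p = 0.0677), and without m1 the value was -0.24 (adjusted p = 0.286). The call was also lost without m1, m4, m5 or m6 at 8°C. In BATdKO mice at 30°C Igtp was at 6.10 to 11.0 CPM (median 8.25), a log2 fold change against Cre- of -0.47 ± 0.15 (adjusted p = 0.24), and without both m6 libraries -0.53 ± 0.16 (adjusted p = 0.0947). It passed there too with m6 of the Cre- mice alone left out. Its interaction was 0.61 ± 0.22 (adjusted p = 0.468). Igtp shares exon sequence with Irgm2 on its own strand, whose tags could be split between the 2 genes. Irgm2 had a log2 fold change of -0.58 ± 0.29 with cold in Cre- mice (adjusted p = 0.292).

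Iigp1 was even across the mice, at 115 to 173 CPM. Its log2 fold changes were -0.17 ± 0.08 between genotypes at 30°C (adjusted p = 0.459) and 0.16 ± 0.08 with cold in BATdKO mice (adjusted p = 0.29), and its interaction was 0.27 ± 0.11 (adjusted p = 0.535). Gbp3 ran from 1.24 to 5.35 CPM and Irgm1 from 1.37 to 5.09 CPM, and neither had an unadjusted p under 0.05 in any comparison. Tap1, which carries peptides to class I molecules, was at 10.7 to 14.7 CPM (median 13.0) in BATdKO mice at 30°C and at 6.97 to 14.3 CPM (median 9.20) at 8°C, a log2 fold change of -0.36 ± 0.15 (adjusted p = 0.222), and passed without m6 at 8°C (adjusted p = 0.0685).

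Among the remaining members Xaf1 and Ifi27 moved in opposite directions. Xaf1, which promotes apoptosis, was at 8.19, 7.10, 7.03, 8.20, 6.90 and 6.90 CPM in Cre- mice at 30°C and at 6.11, 3.85, 4.60, 5.08, 4.28 and 6.58 CPM at 8°C. The groups did not overlap. Xaf1 fell by 0.51 ± 0.14 on the log2 scale (adjusted p = 0.0209), and the call held in each fit that left out 1 mouse. In BATdKO mice the value was -0.17 ± 0.14 (adjusted p = 0.581), and the interaction was 0.34 ± 0.19 (adjusted p = 0.665).

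Ifi27 encodes a small hydrophobic membrane protein. It was at 263, 218, 111, 134, 209 and 298 CPM in Cre- mice at 30°C and at 354, 273, 476, 330, 299 and 311 CPM at 8°C. In BATdKO mice it was at 274, 207, 250, 255, 199 and 90.6 CPM at 30°C and at 573, 441, 382, 453, 300 and 422 CPM at 8°C. Only the Cre- groups overlapped, through m6 at 30°C. Ifi27 was 1.64-fold higher in the cold in Cre- mice (log2 fold change 0.71 ± 0.22, adjusted p = 0.0532) and 2.01-fold higher in BATdKO mice (1.01 ± 0.22, adjusted p = 0.0063). It was the 1 member without overlap in the latter comparison, as a rise, against 1.75% of all genes. In Cre- mice the call was lost without m3 or m4 at 30°C or m3 at 8°C, and in BATdKO mice it held in each fit that left out 1 mouse. The interaction was 0.30 ± 0.31 (adjusted p = 0.857), so the rise was not shown to differ between genotypes. Ifi35 ran from 2.73 to 12.0 CPM, Ifi44 from 1.92 to 9.57 CPM and Rtp4, a receptor transporter, from 7.41 to 14.0 CPM, and none of them had an unadjusted p under 0.05 in any comparison.

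Without both m6 libraries the other values that use the 30°C mice were as follows. With cold in Cre- mice the log2 fold change was -1.13 ± 0.42 for Gbp2 (adjusted p = 0.0942), -0.53 ± 0.15 for Gbp7 (adjusted p = 0.0207), -0.54 ± 0.16 for Igtp (adjusted p = 0.0302), -0.53 ± 0.14 for Xaf1 (adjusted p = 0.0193) and 0.84 ± 0.18 for Ifi27 (adjusted p = 0.00284). All 5 calls thus held. With cold in BATdKO mice Ifi27 also passed, at 0.85 ± 0.18 (adjusted p = 0.00431). Gbp2 (-1.14 ± 0.45), Gbp7 (-0.40 ± 0.14), Ifih1 (-0.32 ± 0.11), Parp14 (-0.24 ± 0.11), Tap1 (-0.31 ± 0.16) and Iigp1 (0.11 ± 0.08) did not, with adjusted p-values of 0.127 to 0.539. Between genotypes at 30°C the values were 0.37 ± 0.12 for Ifih1 (adjusted p = 0.106), -0.34 ± 0.13 for Irf7 (adjusted p = 0.197), -0.58 ± 0.26 for Ifit1 (adjusted p = 0.31), -0.64 ± 0.25 for Oas1a (adjusted p = 0.207) and -0.12 ± 0.08 for Iigp1 (adjusted p = 0.554). The interaction was 0.47 ± 0.38 for Apol6, 0.66 ± 0.23 for Igtp, 0.84 ± 0.35 for Oas1a and 0.22 ± 0.11 for Iigp1, and none of these passed.

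**Figure D4:**
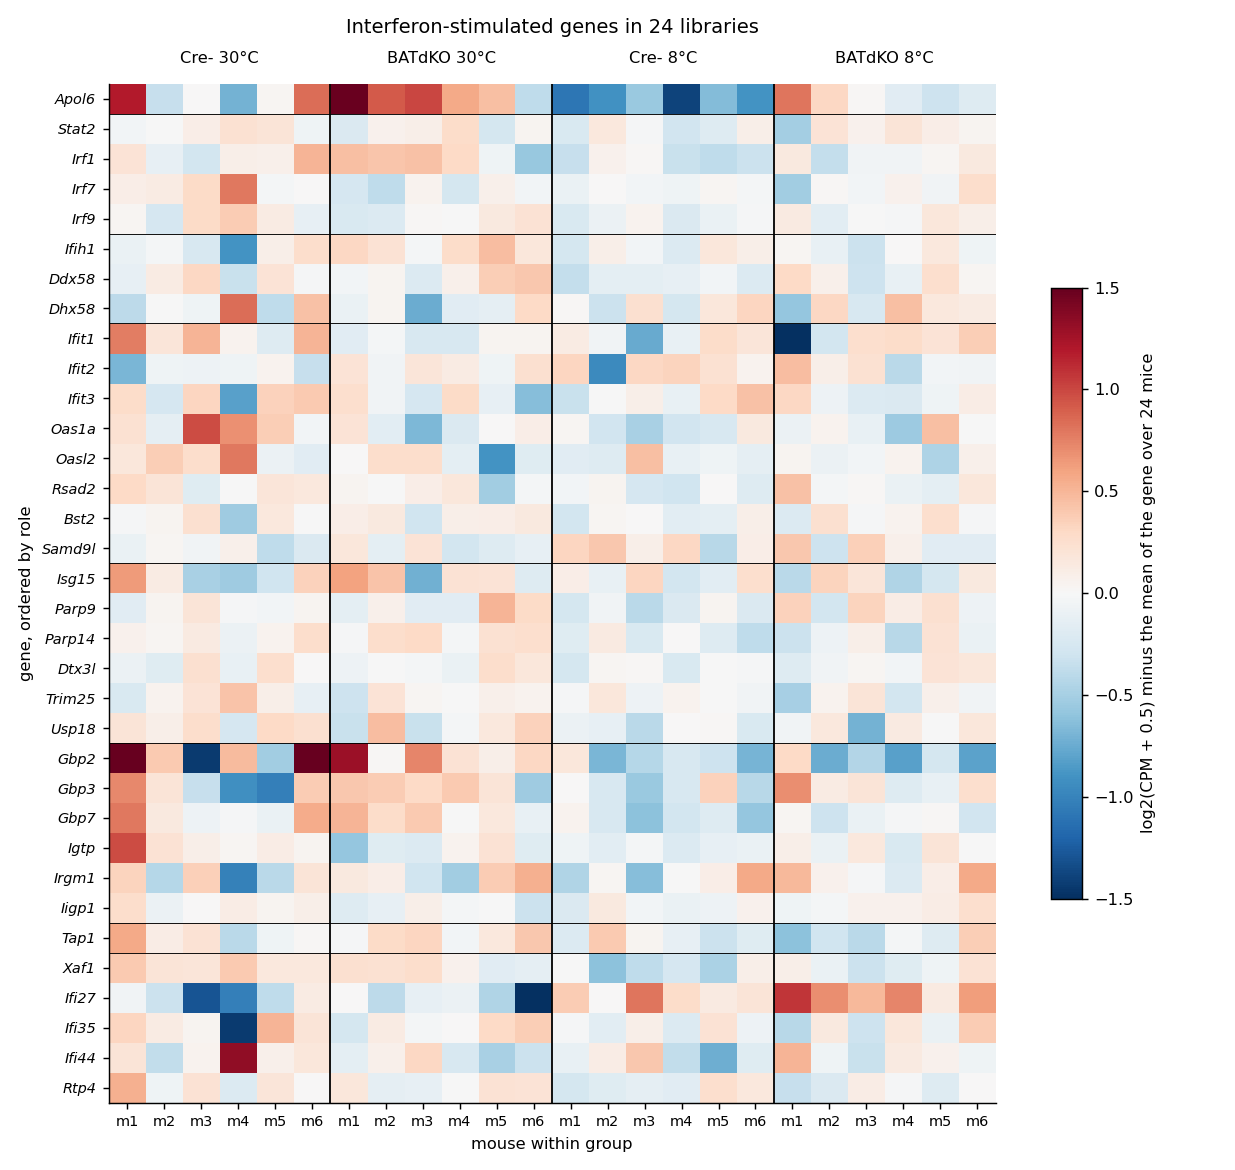
Levels of the 34 genes in each mouse as log2(CPM + 0.5) minus the mean of the gene over 24 mice, ordered by role, with colours cut at 1.5 in either direction. Columns are mice m1 to m6 of each group. Cre- m1 at 30°C is the highest of all mice in 9 genes, and the row of Ifi27 lies mostly below its mean at 30°C and mostly above it at 8°C.

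The spread among mice of a group was like that of other genes. The SD of log2 CPM within groups had a median of 0.27 over the members (0.13 for Iigp1 to 0.72 for Gbp2) and of 0.28 over all tested genes. Single mice carried many of the extremes. Cre- m1 at 30°C was the highest of 24 mice in 9 members and the lowest in none, and the shallow Cre- m4 at 30°C was the highest in 7 and the lowest in 5. BATdKO m1 at 8°C, the next shallowest library, was the highest in 4 and the lowest in 6. The Cre- mice at 30°C also differed in muscle RNA: the sum of 12 skeletal muscle markers was 3654 CPM in m1 and 8593 CPM in m3, and at most 1552 CPM in any other mouse. Without m1, m3 and m4 of this group, 3 members passed in the comparison of cold in Cre- mice, Apol6, Gbp2 and Gbp7, all as lower. Apol6 then fell by 1.29 ± 0.33 on the log2 scale (adjusted p = 0.0237), while Ifi27 had a log2 fold change of 0.50 ± 0.24 (adjusted p = 0.341), Xaf1 of -0.44 ± 0.16 (adjusted p = 0.166) and Igtp of -0.25 ± 0.14 (adjusted p = 0.433). What part muscle RNA had in these values was not tested.

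Other genes of the interferon pathway, in lists that hold none of the members except Apol6 in its own family, were counted in the same comparisons. None passed between genotypes at either temperature or in the interaction. With cold, 3.59% of all 12485 tested genes fell and 5.57% rose in Cre- mice. In BATdKO mice 413 of all genes fell and 470 (3.76%) rose. At most 1 gene of a list fell in Cre- mice and at most 2 in BATdKO mice, so the calls below do not show a wider fall of the pathway. Of 21 interferon genes, none was among the genes analysed here. Of 18 receptor and JAK-STAT genes, Ifngr1, a chain of the interferon gamma receptor, fell in the cold in Cre- mice by 0.35 ± 0.12 and in BATdKO mice by 0.42 ± 0.12 on the log2 scale (adjusted p = 0.0831 and 0.0475). Among 8 other IRF genes, Irf3, which switches on interferon genes after viral sensing, rose in the cold in BATdKO mice (0.24 ± 0.08, adjusted p = 0.0924). Of 18 nucleic acid sensing genes, Samhd1, which depletes nucleotides, fell in both genotypes, by 0.40 ± 0.12 in Cre- and 0.35 ± 0.12 in BATdKO mice (adjusted p = 0.039 and 0.0979).

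Among 54 other type I interferon targets tested, the ADP-ribosyl transferase Parp10 fell in the cold in Cre- mice (log2 fold change -0.48 ± 0.15, adjusted p = 0.0573), and Znfx1 and Xrn1 fell in BATdKO mice (-0.30 ± 0.08, adjusted p = 0.0217, and -0.28 ± 0.09, adjusted p = 0.0643). Of 18 genes induced mainly by interferon gamma, the chemokine Cxcl9 fell in Cre- mice, from a mean of 19.0 ± 8.37 to 9.68 ± 1.22 CPM (SD, n = 6; log2 fold change -1.02 ± 0.25, adjusted p = 0.0116). Ciita, the master regulator of class II genes, fell in BATdKO mice (-0.80 ± 0.22, adjusted p = 0.0326). Of 20 antigen processing genes, the immunoproteasome subunit Psmb10 fell in Cre- mice (-0.49 ± 0.10, adjusted p = 0.0027) and Tapbp in BATdKO mice (-0.30 ± 0.10, adjusted p = 0.0855). In the apolipoprotein L family, 5 of 14 genes were in the table, and Apold1, an endothelial early response gene, rose in the cold where Apol6 fell (2.36 ± 0.31 in Cre- and 1.68 ± 0.29 in BATdKO mice, adjusted p = 1.28e-05 and 0.000609). Of the genes of these lists, Ifngr1, Samhd1 and Apold1 passed with cold in both genotypes, and the interaction passed for none.

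Markers of other cells were read beside these results. Of 8 B cell markers 1 was in the table, Ighm, which was at 6.82 to 8.52 CPM in Cre- and at 13.1 to 27.4 CPM in BATdKO mice at 8°C (log2 fold change 1.46 ± 0.16, adjusted p = 5.07e-06). At 8°C it was thus higher in the same group as Apol6. Between genotypes at 30°C its value was 0.14 ± 0.16 (adjusted p = 0.862). Unlike Apol6, Ighm rose with cold in BATdKO mice (1.01 ± 0.15, adjusted p = 0.000128) and passed the interaction (1.32 ± 0.22, adjusted p = 0.0185). Of 16 T and NK cell markers 1 was in the table, at 0 to 9.46 CPM summed. Among 10 endothelial markers 4 rose in the cold in Cre- mice and 2 in BATdKO mice, and the sum was 202 to 247 CPM in Cre- mice at 30°C and 235 to 320 CPM at 8°C. Of 11 stromal markers 1 fell in Cre- and 2 in BATdKO mice, with sums of 191 to 526 CPM over all mice. No macrophage marker passed in any comparison. At 8°C all 12 skeletal muscle markers had log2 fold changes below 0 in BATdKO against Cre- mice (median -3.11), 11 of them at an unadjusted p under 0.05 and none past the adjusted threshold, with sums of 3.26 to 1552 CPM in Cre- and 0.978 to 157 CPM in BATdKO mice. Of the brown adipocyte markers, Lpl, a lipase that frees fatty acids from lipoproteins, was higher (1.01 ± 0.25, adjusted p = 0.0434) and Adrb3, the adrenergic receptor of these cells, lower (-0.98 ± 0.26, adjusted p = 0.0592) in BATdKO mice at 8°C. The part of these cells in the members' levels was not tested.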

How the data were processed

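BAT RNA of 24 mice was read with a 3′ tag kit (QuantSeq FWD). The raw counts deposited by the authors were made from the forward reads after trimming (BBDuk), alignment to GRCm38 (STAR 2.5.3a) and summing by gene (Rsubread). The annotation release, the strand setting and the rule for leaving out low genes are not given in the sources used here. The study removed outliers it does not name, and all 24 libraries were used here.

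The fit was made with edgeR 4.0.16 (limma 3.58.1, R 4.3.3), using TMM scaling, filterByExpr over the 4 groups (12485 genes kept, 130 removed) and 1 quasi-likelihood model of all libraries by group. P-values were adjusted by Benjamini-Hochberg over all tested genes, with a threshold of 0.1. Each standard error is the fold change over the root of its F. Single genes were also tested by exact two-sided permutation of mean log2(CPM + 0.5). Library totals ran from 699703 to 11527643 counts, and a gene at 1 CPM in the smallest library rests on less than 1 count. The labels do not say whether the mice shared litters or cages, so p-values measure the spread between these mice.

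Columns were matched to samples by the library number in the sample description (12608 of 12615 identifiers had a symbol). Mice are called m1 to m6 in accession order, which pairs no mice. The members and gene lists were chosen with earlier results of these data known. Every member is named. Statistics are given for Apol6, for members past the threshold, and, where fewer than 5 passed, for those with an unadjusted p under 0.05. Promoters are RefSeq's for GRCm38.p6, and positions and overlaps are from GENCODE vM21. By exon, 5 members overlap another gene on their own strand and 10 on the other strand. The steps were tested on simulated data. Alternatives were RLE normalization, DESeq2 1.42.0, no filter, a mean count of at least 10, robust dispersions, only the groups compared, a threshold of 0.05, each mouse left out in turn and 2 sets of libraries left out after the data had been seen.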

Additional observations from a re-analysis of the deposited data

Results flagged for a closer look

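In 11 of 136 groups of 6 mice (34 genes in 4 groups) 1 mouse stood far from the other 5 by Dixon's criterion, where chance gives about 6.8. The highest mouse stood apart in 4 of these. Igtp in Cre- m1 at 30°C was at 19.0 CPM, with the next mouse at 11.0 CPM, and this mouse bears on the fall of Igtp in the cold. Irf7 and Ifi44 in Cre- m4 at 30°C, the shallowest library, were at 19.1 and 9.57 CPM, with the next mice at 13.4 and 4.09 CPM. Oasl2 in Cre- m3 at 8°C was at 4.22 CPM, with the next mouse at 2.81 CPM.

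The lowest mouse stood apart in the others. At 30°C in BATdKO mice, Rsad2 was at 11.3 CPM in m5 (next 16.2), Bst2 at 13.0 CPM in m3 (next 17.1) and Gbp3 at 1.95 CPM in m6 (next 3.56). At 8°C in BATdKO mice, Stat2 was at 11.3 CPM in m1 (next 16.8), Oasl2 at 2.00 CPM in m5 (next 2.75) and Usp18 at 2.85 CPM in m3 (next 4.79). Ifit2 was at 0.502 CPM in Cre- m2 at 8°C (next 1.52).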

How the results depend on the processing

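No value reversed. Between genotypes at 8°C, 0 members and 227 genes passed. Apol6 was the 1 member that passed with DESeq2 (261 genes) and with only the groups compared (477 genes). It was also the 1 member without both m6 libraries at 30°C (324 genes) and without Cre- m1, m3 and m4 at 30°C (349 genes). At an adjusted threshold of 0.05, 140 genes passed. Leaving out 1 mouse gave 0 to 1 members and 138 to 276 genes (fewest without BATdKO m5 at 8°C). At 30°C, 0 genes passed, 90 with DESeq2 and 500 without both m6 libraries (1 member, Igtp). Leaving out 1 mouse gave 0 to 369 genes and 0 to 1 members, both highest without Cre- m6, with 67 genes without Cre- m2, 47 without BATdKO m4 and 41 without BATdKO m6. For cold in Cre- mice, 645 of 1143 genes and 3 of 6 members passed without m1, m3 and m4, and 757 genes at 0.05. Leaving out 1 mouse gave 791 to 1343 genes and 4 to 7 members. Gbp2 and Igtp were also lost with only the groups compared, and Ifi27 with robust dispersions. For cold in BATdKO mice, 1 member passed, and 3 with only the groups compared, without both m6 libraries or without the 3 Cre- mice. At 0.05, 543 of 883 genes passed, and 1 mouse left out gave 574 to 1069 genes (fewest without BATdKO m4 at 8°C) and 1 to 2 members. For the interaction, 12 genes passed, 51 with DESeq2, 21 with robust dispersions, 44 without both m6 libraries, 26 without the 3 Cre- mice and 7 at 0.05. With 1 mouse left out it was 7 to 37 genes, at 7 without BATdKO m2 at 30°C, Cre- m5 or BATdKO m5 at 8°C, and at 21 or more without Cre- m1 or m6 or BATdKO m4 at 30°C or Cre- m2 at 8°C, with 0 members in each. RLE normalization, no filter and a mean count of at least 10 kept each of these counts within 1.5 times. The causes were not tested. The shallow Cre- m4 at 30°C limits the lowest genes. No paired analysis was possible because the labels give the mice no shared replicate numbers.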
